A study of Mus musculus with 12 samples.

Results

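Butyrate given alone was compared with no treatment in enteroids, self-renewing cultures of the intestinal epithelium, grown from the ileum of wild-type C57Bl/6 mice. The libraries were chosen by their column names in the count table: 3 of enteroids given 1 mM butyrate for 48 h and 3 of untreated enteroids, which are 6 of the 12 libraries in the series. Those 6 were given no other agent. The other 6 libraries, 3 from cultures under IL-13 (20 ng/mL, 72 h) and 3 under IL-13 together with butyrate, entered the same model. They helped set which genes were tested and the estimate of spread behind every p-value. Their own levels are used here only to ask whether a change recurred or differed. RNA was read from poly(A) libraries made with a directional protocol. Enteroids hold the epithelial lineages and lack the microbes, immune cells and connective tissue of the gut wall. Whether replicates are separate cultures or mice is not stated in the labels, and a p-value therefore reflects the spread among these samples alone, some of which may be technical.

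Gut bacteria make butyrate, a short-chain fatty acid, from dietary fibre. Inside cells it has a pair of well-known roles: it is a fuel, activated to butyryl-CoA and burned by mitochondrial fatty acid oxidation, and it inhibits class I and IIa histone deacetylases, enzymes that remove acetyl groups from histones and other proteins. Deacetylase inhibitors are known in many cell lines for raising Cdkn1a, which encodes the cell cycle inhibitor p21, and H1f0, which encodes the linker histone H1.0. In the intestine, enterocytes absorb nutrients, while goblet, Paneth, tuft and enteroendocrine cells form the secretory lineages, all of them renewed from stem cells at the crypt base.

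The untreated libraries held 16303915 to 22558599 counts and the butyrate libraries 17006538 to 24294456. Epcam, which marks all intestinal epithelium, was at 1613 ± 51.1 CPM (counts over the scaled library size; mean ± SD, n = 3) untreated and 1685 ± 104 with butyrate, while the markers of mesenchymal, immune and endothelial cells and of glia and neurons that passed the filter summed to at most 37.6, 30.8, 5.93 and 9.98 CPM in any of the 6 libraries. Of these markers, 1 of 4 tested immune genes was called higher (Lyz2) and 1 of 4 tested glial and neuronal genes lower (Snap25). The Lyz2 call held without butyrate replicate 3 and was lost without any other single library of the 6 and by DESeq2, and the Snap25 call held without untreated replicate 1 and was lost without any other. The first principal component of the 6 libraries, 47.0% of the variance, put the untreated ones between -27.2 and -19.5 and the butyrate ones between 19.6 and 26.2. The second, 22.9%, set butyrate replicate 2 at 25.8 against replicate 3 at -29.1. In Lars2, too, butyrate replicate 2 was set apart, at 5048 CPM against 423 to 1434 in the other 5 libraries; the part of Lars2 in the results was not tested, and the counts without the 2 libraries highest in it are given with the first result.

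Butyrate changed 1086 of 13750 tested genes (7.9%), as called by edgeR's quasi-likelihood test at a Benjamini-Hochberg adjusted p under 0.05. Of these, 707 were higher with butyrate (5.14% of tested genes) and 379 were lower (2.76%). Counts in the gene lists below are to be read beside these shares. The CPM of the 2 groups did not overlap in 27.0% of tested genes (1782 higher, 1924 lower with butyrate), so such separation was more common than a call. Among the called genes, groups overlapped in 22. The rises were mostly small and the falls larger: the median log2 fold change was 0.54 among the genes called higher and -0.83 among those called lower, against -0.01 over all tested genes. A change of 2-fold or more was reached by 135 of the genes called higher and 157 of those called lower. The called genes lay at different levels before treatment, with a median of 48.6 CPM untreated for those called higher, 17.1 CPM for those called lower and 28.6 CPM for all tested genes. Interferon response genes (42 of 52 tested) and enteroendocrine genes (25 of 33 tested) made up 67 of the calls, and the other 1019 lay outside both lists. The lists are not complete, and Sp100, a gene that interferon also induces, is among the 1019. The enteroendocrine count was 16 without untreated replicate 2. The number of calls depended on single libraries. It was 624 without butyrate replicate 1, 607 without untreated replicate 2 and 559 without untreated replicate 3, and it was 1183 without the 2 libraries highest in Lars2. Those 2 were replicate 2 of butyrate alone and replicate 3 of butyrate with IL-13.

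**Figure D1:**
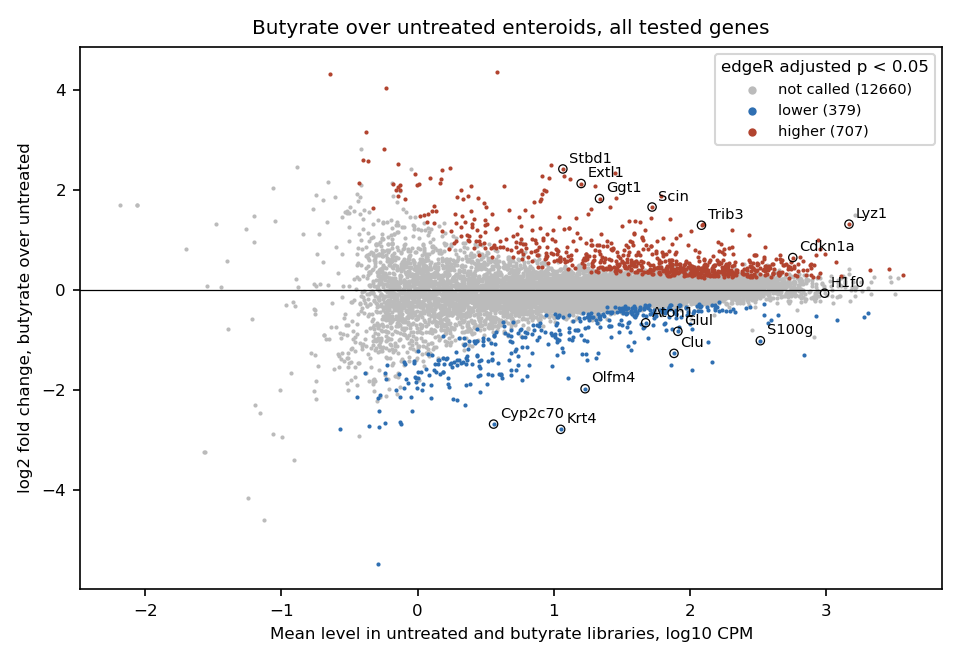
Each point is a tested gene, with its mean level over the 6 libraries in log10 CPM on the horizontal axis and its log2 fold change, butyrate over untreated, on the vertical axis; red and blue mark the 707 genes called higher and the 379 called lower by edgeR. Genes called higher gather at small rises among well-expressed genes, and 4 genes with no count in these 6 libraries are not drawn.

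Stbd1 had the largest rise named here outside the interferon and enteroendocrine lists. Stbd1 (chr5:92603051-92606579, mm10), which tethers glycogen to membranes, was at 2.19, 4.34 and 4.60 CPM in the untreated libraries and at 20.8, 20.2 and 17.9 CPM with butyrate. The lowest butyrate library was far above the highest untreated one, and the log2 fold change was 2.42 ± 0.20 (SE; edgeR adjusted p = 4.04e-07). Extl1 (chr4:134356372-134383850), a glycosyltransferase of the exostosin family, was at 5.05, 7.17 and 5.43 CPM untreated and at 25.7, 24.4 and 27.6 CPM with butyrate. Its log2 fold change was 2.13 ± 0.12 (edgeR adjusted p = 1.69e-08). The largest changes were named only from genes whose groups did not overlap, so that separation adds no support here. Cyp2d22 (chr15:82370528-82380260), a cytochrome P450, was at 8.91, 8.06 and 5.71 CPM untreated and rose to 31.8, 30.5 and 35.1 CPM (log2 fold change 2.09 ± 0.15, adjusted p = 1.00e-07). Azin2, an antizyme inhibitor that promotes polyamine synthesis, rose from 1.62 ± 0.55 to 7.04 ± 2.40 CPM. Hsd17b6, a steroid and retinol dehydrogenase, rose from 3.53 ± 0.04 to 13.98 ± 0.95 CPM, and Wnt4, a secreted Wnt ligand, from 3.30 ± 1.18 to 11.04 ± 1.84 CPM. Zcchc24 rose from 1.21 ± 0.14 to 4.33 ± 0.55 CPM. Apol9a, Apol9b, Defa34 and Pcdha11 belong to the same top group, with log2 fold changes from 1.81 to 2.29, but each has near-identical or overlapping copies, so how their reads were divided is uncertain.

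Falls were led by a squamous keratin. Krt4 (chr15:101918536-101924735), a keratin of stratified epithelia, was at 17.5, 23.7 and 17.7 CPM untreated and at 2.97, 2.39 and 3.17 CPM with butyrate. The log2 fold change was -2.79 ± 0.20 (edgeR adjusted p = 1.00e-07), and groups that did not overlap were again a condition for naming the largest falls. Cyp2c70, a P450 known for bile acid hydroxylation, fell from 6.28 ± 0.75 to 0.954 ± 0.316 CPM. St6gal1, which adds sialic acid to glycans, fell from 19.7 ± 1.58 to 5.79 ± 0.35 CPM. Nrp1, a co-receptor for semaphorins and VEGF, fell from 3.56 ± 0.51 to 0.947 ± 0.240 CPM, and Tnfrsf8, the receptor CD30, from 9.71 ± 2.71 to 2.95 ± 0.26 CPM. Pappa2, a protease that cleaves IGF-binding proteins, fell by 1.76 on the log2 scale, and Prdm8, Sh2d7 and Wfdc16 by 1.88, 1.73 and 1.70. Alppl2, an alkaline phosphatase, was called lower as well (-1.87), but not without butyrate replicate 1, butyrate replicate 2 or untreated replicate 1, where its adjusted p reached 0.146 at most.

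The genes that write, read and erase chromatin marks were almost all uncalled. Of 17 tested histone deacetylases and sirtuins none was called, and none was called among 29 subunits of deacetylase complexes, 21 acetyltransferases, 30 remodellers, 17 genes of DNA methylation, 14 linker histones and HMG proteins and 20 histone chaperones. The 38 tested methyltransferases gave 1 call (Smyd2, lower), the 22 demethylases 3 (Kdm6b, Jmjd1c and Kdm7a, higher), the 23 acetyl-lysine readers 2 and the 23 core histones 1 (H2afv, lower). Together these 251 genes gave 7 calls, or 2.79%, against 7.9% of all tested genes. In fits without a single library some calls appeared in these lists: without butyrate replicate 3, 1 acetyltransferase and 1 remodeller were called higher, DNA methylation genes gave 1 call without butyrate replicate 1, and chaperones gave 1 without butyrate replicate 2 or 3. Unadjusted p was under 0.05 for 20 of the 146 genes of the uncalled lists in edgeR, beside 2945 of all 13750 tested genes. DESeq2 called 2 of the 146. Of 29 listed germline genes, which are often silenced by chromatin, 12 were among the deposited genes. Only 6 of these were expressed well enough to test, and the absent genes could not be assessed. None of the 6 was called by edgeR or DESeq2, with 1 at an unadjusted p under 0.05. In the fits without butyrate replicate 3 or untreated replicate 1, 1 germline gene was called higher.

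The class I deacetylases that butyrate inhibits kept levels close to those of untreated enteroids. Hdac1 was at 14.9, 15.1 and 14.9 CPM untreated and 15.96, 13.2 and 12.8 CPM with butyrate, which overlap (log2 fold change -0.10, 95% interval -0.36 to 0.17). Hdac2 changed by -0.08 (-0.25 to 0.10) and Hdac3 by -0.14 (-0.31 to 0.04). Hdac7, a class IIa enzyme, was at 20.9, 22.9 and 24.1 CPM untreated and 17.7, 15.0 and 17.3 CPM with butyrate. Its groups did not overlap, yet the change of -0.44 ± 0.15 had an adjusted p of 0.0945 in edgeR, and it was called only when the 2 groups were fitted alone (0.0419). Hdac4, Hdac5, Hdac6, Hdac8, Hdac10 and Hdac11 changed by between -0.30 and 0.04, and Sirt1 to Sirt7 by between -0.12 and 0.30, with adjusted p from 0.213 to 0.994.

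The few chromatin genes that were called moved by less than 1.5-fold, apart from 1 at low level. Trim24, a bromodomain reader and co-regulator of nuclear receptors, was at 89.8, 90.2 and 97.3 CPM untreated and 67.5, 62.7 and 69.0 CPM with butyrate. The groups were well apart (log2 fold change -0.48 ± 0.08, edgeR adjusted p = 0.000929), and leaving out any library kept the call. Kdm6b, which removes methyl groups from lysine 27 of histone H3, rose from 131 ± 2.22 to 170 ± 17.5 CPM, with the call lost without butyrate replicate 1 (the highest adjusted p of these fits was 0.0602) or untreated replicate 3. Jmjd1c rose from 74.5 ± 1.86 to 98.7 ± 16.03 CPM and Kdm7a from 61.4 ± 4.45 to 84.3 ± 21.3 CPM. Jmjd1c was no longer called without butyrate replicate 1 or 2 or untreated replicate 2 or 3 (up to 0.0851), and Kdm7a without butyrate replicate 2 or untreated replicate 2 or 3 (up to 0.178). Smyd2, a lysine methyltransferase, fell from 45.9 ± 3.07 to 32.2 ± 1.60 CPM, and lost the call without butyrate replicate 1 or untreated replicate 2 or 3 (up to 0.0912). Sp100, a reader that is also induced by interferon, lay at 0.369 ± 0.263 CPM untreated and 1.60 ± 0.38 with butyrate, and was uncalled without butyrate replicate 1 or untreated replicate 1 or 3 (up to 0.0830). The fall of the histone variant H2afv, from 43.2 ± 0.63 to 34.8 ± 2.03 CPM, lost its call without any 1 of butyrate replicates 1 and 2 and the 3 untreated libraries (up to 0.164), and also with a replicate block, no filter, the 2 groups fitted alone or any IL-13 library left out. Jmjd1c and Kdm7a were not called either with the 2 groups fitted alone or without the 2 libraries highest in Lars2, nor Kdm7a without any single IL-13 library.

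Genes known to rise under deacetylase inhibitors in other cells split both ways. Of 21 tested, 4 rose (Cdkn1a, Cdkn2b and Gadd45a among them) and 4 fell (Clu, Klf4, Ccn2 and Mt2); without butyrate replicate 1 the number that fell was 2. Cdkn1a (chr17:29090979-29100722) was at 435, 448 and 446 CPM untreated and at 698, 659 and 728 CPM with butyrate. Every butyrate library was above every untreated one, with a log2 fold change of 0.65 ± 0.07 (edgeR adjusted p = 2.12e-05). Cdkn2b, which encodes the inhibitor p15 of cyclin D kinases, was at 132, 144 and 142 CPM untreated and at 248, 211 and 291 CPM with butyrate (0.84 ± 0.10, adjusted p = 3.05e-05). Gadd45a, a growth arrest and DNA damage gene, was at 119, 137 and 126 CPM against 235, 191 and 225 CPM (0.77 ± 0.09, adjusted p = 2.12e-05). In both genes the groups were apart.

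H1f0 (chr15:79028212-79030498) was not called. It was among the more abundant chromatin genes, at 961, 982 and 1043 CPM untreated and 940, 828 and 1091 CPM with butyrate, and the groups overlapped fully. The log2 fold change was -0.06 (95% interval -0.27 to 0.14, adjusted p = 0.772). Clu (chr14:65968483-65981548), which encodes the chaperone clusterin and marks injury-responsive epithelium, went the other way from the list's name. It was at 110, 113 and 101 CPM untreated and 48.0, 44.9 and 41.6 CPM with butyrate, with a log2 fold change of -1.27 ± 0.12 (adjusted p = 4.04e-06).

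Cell cycle genes were not called beside these inhibitors. None of 38 tested cell cycle genes was called by edgeR, with a median log2 fold change of -0.23. Unadjusted p was under 0.05 for 13 of them in edgeR, beside 2945 of all 13750 tested genes. In other fits 1 was called lower without butyrate replicate 3, 4 by DESeq2 or without the 2 libraries highest in Lars2, and 6 when the 2 groups were fitted alone. Mki67, the proliferation marker, was at 294, 291 and 295 CPM untreated and 294, 319 and 247 CPM with butyrate, so the butyrate libraries fell on both sides of the untreated ones. Of 15 cell cycle inhibitors and D cyclins, 4 rose: Cdkn1a and Cdkn2b, as above, Btg1 (188 ± 6.14 to 247 ± 3.62 CPM), an antiproliferative gene, and Rb1 (79.9 ± 10.2 to 107 ± 23.0 CPM), the retinoblastoma protein. Rb1's groups overlapped, and its call was lost without butyrate replicate 1 or 2 or untreated replicate 2 or 3 (adjusted p up to 0.211).

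Among metabolic genes, several for amino acid synthesis and for the response to amino acid shortage rose. When amino acids run short or the endoplasmic reticulum is stressed, phosphorylation of eIF2 alpha favours translation of the transcription factor ATF4, which with C/EBP partners binds composite sites of the form TGATGNAA. Of 36 tested genes of amino acid synthesis and one-carbon metabolism, 10 were called higher and 1 lower (median log2 fold change 0.08). Among those called higher were Ddit3, Trib3, Cth, Got1, Mthfd2, Gpt2, Chac1, Asns and Atf4. Of a list of 35 ATF4 and stress response targets drawn up after these values had been seen, 22 were called higher and none lower, with a median of 0.46; DESeq2 also called none lower, and the count is given as a description only.

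Promoter sequence is shown for members of this group because the site letters can be read in it. RefSeq windows on GRCm38.p6 ran from 250 bases before to 50 after the first listed start. Of the amino acid list, 8 genes called higher had a window. TGATGNAA on either strand was present in 4 of these, Got1, Chac1, Asns and Trib3, and in 6 of 29 over all tested members (20.7%). In the list of ATF4 and stress response targets it was present in 5 of 18 called higher (27.8%). Both lists include genes known to respond to ATF4, such as Trib3, so these shares are no test of the motif. It was present in 4.85% of the windows of genes called higher (26 of 536), 2.77% of those called lower (8 of 289) and 2.19% of all tested genes with a window (227 of 10350). This motif and window were chosen after the calls were known. The 250 bases before the start follow, 5′ to 3′ along the gene, with the matches in capitals: Got1 at chr19:43524606-43524855 (minus strand), Chac1 at chr2:119350992-119351241 (plus), Asns at chr6:7693210-7693459 (minus) and Slc7a11 at chr3:50443614-50443863 (minus).
Got1: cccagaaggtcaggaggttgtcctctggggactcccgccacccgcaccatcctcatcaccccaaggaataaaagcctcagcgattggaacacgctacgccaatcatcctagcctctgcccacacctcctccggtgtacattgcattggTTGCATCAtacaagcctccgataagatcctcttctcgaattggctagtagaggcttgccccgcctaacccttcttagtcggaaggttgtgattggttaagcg
Chac1: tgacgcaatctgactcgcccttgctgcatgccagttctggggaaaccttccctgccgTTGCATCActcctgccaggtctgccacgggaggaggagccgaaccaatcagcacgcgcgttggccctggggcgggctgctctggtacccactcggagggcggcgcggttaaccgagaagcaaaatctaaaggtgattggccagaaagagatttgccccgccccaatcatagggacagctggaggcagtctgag
Asns: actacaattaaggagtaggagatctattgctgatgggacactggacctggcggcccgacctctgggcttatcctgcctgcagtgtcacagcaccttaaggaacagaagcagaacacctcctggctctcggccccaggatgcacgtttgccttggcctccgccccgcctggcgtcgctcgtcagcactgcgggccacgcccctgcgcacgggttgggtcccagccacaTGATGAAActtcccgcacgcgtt
Slc7a11: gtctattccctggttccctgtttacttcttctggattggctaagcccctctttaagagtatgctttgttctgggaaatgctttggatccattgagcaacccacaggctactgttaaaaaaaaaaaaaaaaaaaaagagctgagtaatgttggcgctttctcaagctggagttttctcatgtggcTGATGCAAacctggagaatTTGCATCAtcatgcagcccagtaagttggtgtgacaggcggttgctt
The match began 102 bases before the start in Got1, 193 in Chac1 and 23 in Asns, and that of Trib3, TTACATCA, lay 14 bases after its start. Slc7a11, the cystine transporter and a known ATF4 target, is shown because it had 2 matches and yet was not called. A match describes the letters only. In the 100 bases before the start the shares were 0.746%, 1.04% and 0.657%, with 1 of the 8 amino acid list genes called higher.

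The stress transcripts in this group rose the most. Trib3 (chr2:152337422-152344032), a pseudokinase induced by ATF4, was at 61.2, 80.9 and 69.0 CPM untreated and at 183, 157 and 179 CPM with butyrate. The groups were far apart, and the log2 fold change was 1.30 ± 0.12 (edgeR adjusted p = 2.86e-06). Ddit3 (chr10:127290774-127296288), which encodes the stress factor CHOP, was at 47.3, 57.2 and 56.9 CPM untreated and 120, 98.6 and 125 CPM with butyrate (1.09 ± 0.10, adjusted p = 2.82e-06). Fam129a, a stress-induced gene named after its value was seen, was at 63.4, 75.4 and 72.8 CPM against 187, 186 and 158 CPM (1.33 ± 0.09, adjusted p = 1.00e-07). In none of these genes did the groups overlap. Atf3 rose from 30.8 ± 1.68 to 50.01 ± 7.72 CPM and Ppp1r15a, the feedback phosphatase subunit of the pathway, from 24.4 ± 0.29 to 48.1 ± 3.87 CPM.

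Enzymes of the group rose by less. Cth, which makes cysteine from cystathionine, was at 111, 115 and 114 CPM untreated and 186, 196 and 160 CPM with butyrate, with no overlap (log2 fold change 0.67 ± 0.09, adjusted p = 8.68e-05). Got1, the cytosolic aspartate aminotransferase, rose from 131 ± 7.50 to 190 ± 13.1 CPM, and Chac1, which degrades glutathione, from 82.9 ± 10.6 to 118 ± 16.7 CPM. Mthfd2, a mitochondrial folate enzyme, rose from 144 ± 6.46 to 198 ± 14.8 CPM, and Gpt2, an alanine aminotransferase, from 49.5 ± 1.08 to 68.2 ± 6.09 CPM. Asns, asparagine synthetase, had a log2 fold change of 0.36 ± 0.09 (SE), and Atf4 itself was at 636 ± 26.9 and 780 ± 47.9 CPM. Both of those calls were lost without butyrate replicate 1 or untreated replicate 1 or 3 (adjusted p up to 0.0937 for Asns and 0.124 for Atf4).

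Not every gene of that group moved the same way. Slc7a11 was at 88.1, 82.7 and 74.4 CPM untreated and 78.2, 98.6 and 56.9 CPM with butyrate, a full overlap (log2 fold change -0.07, 95% interval -0.38 to 0.24). Glul (chr1:153899944-153909723), glutamine synthetase, was the 1 gene of the list called lower. It was at 103, 110 and 99.9 CPM untreated and 58.6, 55.3 and 62.7 CPM with butyrate, with no overlap (-0.82 ± 0.10, adjusted p = 4.47e-05). Cytosolic tRNA synthetases, a list also added after the values were seen, had 2 of 20 called (10%, beside 7.9% of all tested genes). Both were higher, Nars (492 ± 25.6 to 664 ± 30.1 CPM) and Rars (119 ± 2.26 to 147 ± 7.91 CPM). The count was 1 without butyrate replicate 1 or any single untreated library. It was 4 without butyrate replicate 2 or 3, by DESeq2 or without the 2 libraries highest in Lars2. Of 22 genes of the unfolded protein response 3 rose, the sensors Ern1 and Atf6 and the chaperone partner Dnajb9, and the counts were 5 higher and 2 lower without butyrate replicate 3 and 5 and 1 by DESeq2. Among 28 p53 targets 4 were called higher, namely Cdkn1a, Sesn2, Pmaip1 and Trp53inp1, and the count was 1 without butyrate replicate 1 or untreated replicate 2 and 2 without untreated replicate 1 or 3.

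Some genes for taking up and using glucose rose. Of 32 glycolysis and lactate genes, 7 were called higher and none lower; the median was 0.20 on the log2 scale, and 11 were called higher without butyrate replicate 2 and 12 without the 2 libraries highest in Lars2. In that list 1 gene was called lower without butyrate replicate 3 and 1 by DESeq2. Hk2, a hexokinase, was at 123, 129 and 123 CPM untreated and 191, 196 and 184 CPM with butyrate (0.61 ± 0.09, edgeR adjusted p = 0.000287). Slc2a1, the glucose transporter GLUT1, was at 138, 139 and 134 CPM against 207, 175 and 217 CPM (0.55 ± 0.08, adjusted p = 0.000351). In both the butyrate libraries were all above the untreated ones. Hk1 rose from 100 ± 3.36 to 154 ± 16.7 CPM, Pfkp, the platelet-type phosphofructokinase, from 300 ± 1.36 to 401 ± 29.9 CPM, and Ldhd, which oxidises D-lactate, from 58.9 ± 1.63 to 89.6 ± 8.26 CPM. Ldha, lactate dehydrogenase, was at 1154 ± 53.6 and 1408 ± 107 CPM, a call lost without any 1 of butyrate replicates 1 and 3 and the 3 untreated libraries (adjusted p up to 0.194). Besides Stbd1, the glycogen and gluconeogenesis list of 26 gave Pcx among the genes called higher and, as lower, Fbp2, a fructose bisphosphatase (123 ± 4.43 to 92.7 ± 1.74 CPM). The count of higher genes in that list fell from 3 to 1, Stbd1, without any single untreated library.

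The genes that burn fatty acids, butyrate's own route, did not rise as a group. Of 31 genes of mitochondrial fatty acid oxidation, 3 were called higher and 2 lower, and the median log2 fold change was 0.00. Acot2, a mitochondrial acyl-CoA thioesterase, was at 5.76, 6.36 and 5.32 CPM untreated and 15.3, 14.9 and 18.3 CPM with butyrate, with no overlap (1.47 ± 0.16, edgeR adjusted p = 1.71e-05). Cpt1a, which commits long-chain fatty acids to the mitochondrion, was at 203, 216 and 207 CPM against 159, 164 and 149 CPM (-0.41 ± 0.08, adjusted p = 0.00367). Acsl5, an acyl-CoA synthetase, rose from 244 ± 4.57 to 316 ± 16.5 CPM. Acsl4 was called higher with overlapping groups, and it lost the call without butyrate replicate 1 or 2 or untreated replicate 2 or 3 (up to 0.207). Acaa2, the thiolase that ends the cycle, was the other gene called lower, and Cpt1a alone was so called without butyrate replicate 1 or any single untreated library. Of 71 respiratory chain subunits none was called by edgeR, with 1 at an unadjusted p under 0.05 and 1 called by DESeq2. The 24 genes of the tricarboxylic acid cycle gave Mdh2 and Ogdh as higher and Me1, malic enzyme, as lower. That is 12.5% of them, beside 7.9% of all tested genes. Without any 1 of butyrate replicate 1 and the 3 untreated libraries neither Mdh2 nor Ogdh was called, and Me1 was not called without butyrate replicate 1 or untreated replicate 1.

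**Figure D2:**
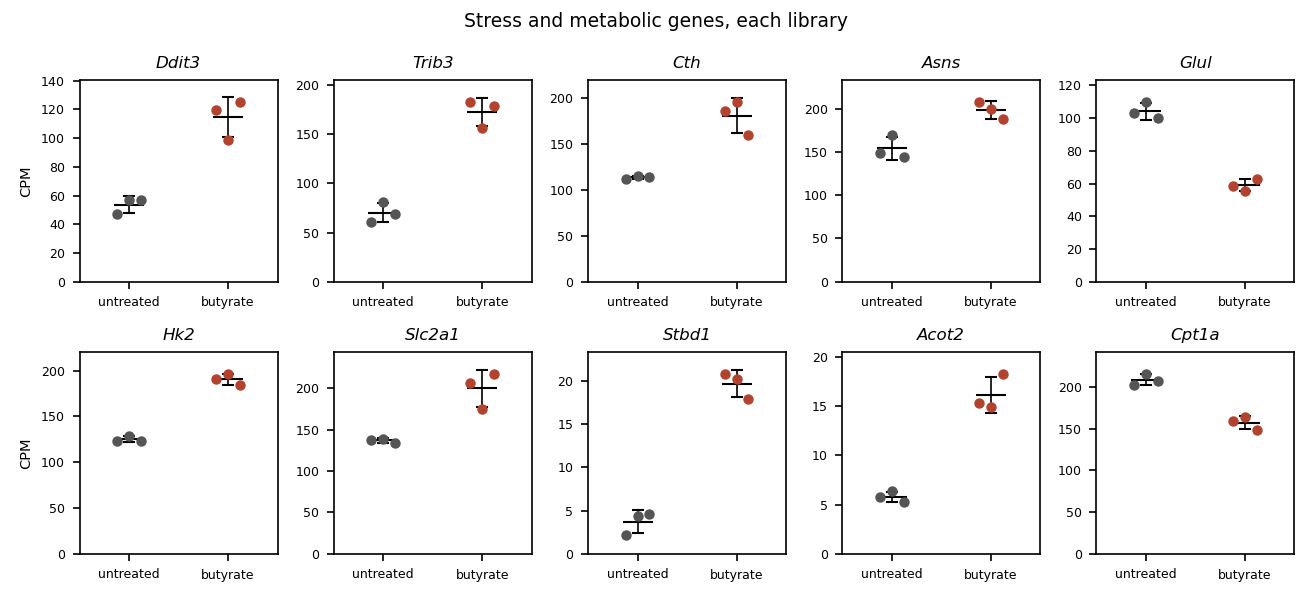
Levels of 10 stress and metabolic genes in CPM on linear axes from 0, with a point for each of the 3 libraries of a group, the mean as a bar and the SD as whiskers. The groups do not overlap in any of these chosen panels, nor in 27.0% of all tested genes, and Glul and Cpt1a are the 2 genes that lie lower with butyrate.

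Of 14 tested genes that carry, sense or activate butyrate, 3 were called (21.4%, beside 7.9% of all tested genes), 1 higher and 2 lower. Slc16a1, the monocarboxylate transporter MCT1, was at 428, 388 and 358 CPM untreated and 404, 460 and 359 CPM with butyrate, which overlap (log2 fold change 0.06, 95% interval -0.16 to 0.27). Slc5a8, the sodium-coupled carrier, was at 1.06 CPM or less in every library, and its interval, -0.66 to 2.10 on the log2 scale, was too wide to judge a change. Slc16a3, the lactate exporter MCT4, was the 1 called higher, from 140 ± 14.8 to 212 ± 43.3 CPM. Ffar2, a short-chain fatty acid receptor, was at 5.15 ± 0.57 and 1.92 ± 0.49 CPM and was called lower, though not without untreated replicate 3 (adjusted p = 0.0628). Acss1, the mitochondrial acetyl-CoA synthetase, was called lower from 51.3 ± 1.64 to 41.9 ± 0.22 CPM, and this call was lost without any 1 of butyrate replicates 1 and 2 and the 3 untreated libraries (up to 0.115). Oxct1, which activates ketone bodies for burning, rose from 356 ± 23.2 to 476 ± 48.5 CPM, except without untreated replicate 3 (0.0523). Of 21 tested PPAR targets 3 rose, Acot2, Cidec and the transcription factor gene Creb3l3, and 2 fell, Cpt1a and Vnn1 (29.8 ± 3.14 to 12.6 ± 0.59 CPM).

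Some genes of nutrient absorption and of the brush border were called higher, and most members of each list were not called. Of 35 genes of lipid absorption and lipoproteins, 11 were called higher and 1 lower (median log2 fold change 0.20); of 20 for sugars, 5 and 0 (0.21); of 27 for peptides and amino acids, 10 and 0 (0.30); and of 32 brush border genes, 11 and 0 (0.25), beside 5.14% and 2.76% of all tested genes. Without single libraries the lipid count was 7 (butyrate replicate 1 or 3, or untreated replicate 1) or 5 (untreated replicate 2 or 3). The sugar count was 3 (butyrate replicate 1 or 3, untreated replicate 1 or 2) or 1 (untreated replicate 3), and the peptide count 6 without untreated replicate 3. Without the 2 libraries highest in Lars2 the sugar count was 8. The brush border count was 6 (butyrate replicate 1, untreated replicate 2) or 5 (untreated replicate 3). Without butyrate replicate 3, 2 lipid, 2 peptide and 1 brush border gene were called lower, as was 1 brush border gene without untreated replicate 1; the sugar list had none lower in these fits.

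Ggt1 (chr10:75561604-75586200), the brush border enzyme that splits glutathione, rose the most of the peptide list. It was at 9.38, 10.7 and 8.31 CPM untreated and 31.8, 30.0 and 39.8 CPM with butyrate, a log2 fold change of 1.83 ± 0.13 (edgeR adjusted p = 1.00e-07). Anpep, aminopeptidase N, was at 168, 180 and 165 CPM against 338, 300 and 468 CPM, and butyrate replicate 3 was the highest (1.11 ± 0.18, adjusted p = 0.000620). In both genes all butyrate libraries lay above all untreated ones. Mep1b, a meprin protease, rose from 252 ± 21.8 to 367 ± 11.4 CPM and Slc6a19, the neutral amino acid transporter, from 19.5 ± 1.45 to 34.0 ± 6.70 CPM. For sugars, Slc2a2, the basolateral transporter GLUT2, was at 334, 332 and 314 CPM untreated and 474, 481 and 449 CPM with butyrate (0.52 ± 0.07, adjusted p = 0.000126). Slc5a1, the sodium-glucose transporter SGLT1, rose from 1790 ± 151 to 2374 ± 18.5 CPM, and Sis, sucrase-isomaltase, from 961 ± 98.5 to 1414 ± 253 CPM. Without untreated replicate 3 these 2 genes had adjusted p of 0.0509 and 0.0789.

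For lipids, the enzymes that rebuild triglyceride and cholesterol ester in the enterocyte rose by less than 1.5-fold. Dgat2, which adds the last acyl chain of triglyceride, was at 128, 124 and 115 CPM untreated and 174, 155 and 186 CPM with butyrate, with no overlap (log2 fold change 0.49 ± 0.08, edgeR adjusted p = 0.000883). Mogat2 and Gpat3, which act earlier on the route, had log2 fold changes of 0.43 ± 0.08 and 0.55 ± 0.11 (SE), both called higher. Soat2, which esterifies cholesterol, rose from 52.6 ± 4.92 to 78.3 ± 7.24 CPM. Fabp2, the intestinal fatty acid binding protein, was called lower, at 43.4 ± 1.70 and 31.3 ± 1.28 CPM, and was not called without any 1 of butyrate replicates 1 and 2 and untreated replicates 2 and 3. In the list of brush border genes, Plscr1 rose from 14.6 ± 1.82 to 25.4 ± 1.62 CPM, Mall from 160 ± 9.48 to 222 ± 15.5 CPM and the scaffold gene Pdzk1 from 48.6 ± 3.10 to 70.4 ± 3.11 CPM. Alpi, the intestinal alkaline phosphatase often used as an enterocyte marker, did not follow: it was at 528, 459 and 419 CPM untreated and 401, 358 and 569 CPM with butyrate (log2 fold change -0.08, 95% interval -0.42 to 0.26).

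Along the villus, lists of lower, middle and tip enterocyte genes had 4 of 15, 6 of 16 and 7 of 18 members called higher, and 0, 1 and 1 called lower. Lypd8, a secreted flagellin-binding protein, rose from 580 ± 69.1 to 1154 ± 196 CPM, and Nt5e, a tip ectonucleotidase, from 36.3 ± 0.55 to 66.5 ± 9.45 CPM. Both rose while Klf4, a regulator of tip and goblet genes, fell from 87.8 ± 3.35 to 64.4 ± 4.67 CPM. The lower villus count was 2 without butyrate replicate 1 or 2 or untreated replicate 1 or 3, the middle count 2 without untreated replicate 3, and the tip count 4 without any single untreated library. Of 40 intestinal transcription factors, 1 rose (Creb3l3, 25.4 ± 1.96 to 49.8 ± 12.7 CPM) and 4 fell: Foxa2 (18.2 ± 2.28 to 9.48 ± 1.59 CPM), Klf4, Vdr and Foxa3. Vdr, the vitamin D receptor, at 381 ± 10.9 and 313 ± 22.7 CPM, lost its call without butyrate replicate 1 or any single untreated library (adjusted p up to 0.164). Without butyrate replicate 3 and without untreated replicate 1 the number that rose was 4 and 3, and the number that fell was 2 without butyrate replicate 1 or untreated replicate 2 or 3.

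Calcium and water transport genes went both ways. S100g, which encodes the calcium carrier calbindin-D9k, was at 418, 440 and 461 CPM untreated and at 241, 182 and 230 CPM with butyrate, with the groups well apart (log2 fold change -1.01 ± 0.10, edgeR adjusted p = 3.19e-06). Atp2b1, the basolateral calcium pump, rose from 447 ± 39.3 to 658 ± 48.5 CPM. The water channel gene Aqp1 was at 127, 125 and 139 CPM against 76.0, 80.6 and 70.3 CPM (-0.78 ± 0.12, adjusted p = 0.000351). Slc26a6, an apical anion exchanger, rose from 75.9 ± 3.02 to 109 ± 16.1 CPM. In the list of 32, 5 genes rose and 3 fell, and the number that rose was 3 without butyrate replicate 1 or untreated replicate 2 or 3. Junction genes had 5 of 29 called higher and 2 lower, Cldn2 and Gjb1, the latter count being 1 or 0 without butyrate replicate 1 or 2 or untreated replicate 2 or 3. Those higher included Pard6b, a polarity gene (407 ± 7.95 to 577 ± 45.3 CPM), and Cxadr (435 ± 27.8 to 611 ± 107 CPM). That count was 3 without butyrate replicate 1 and 2 without untreated replicate 3.

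Enzymes that handle foreign compounds, retinoids and bile acids changed gene by gene. Of 33 cytochrome P450 genes 4 rose and 3 fell, and of 46 conjugation enzymes 3 rose and 2 fell. The shares called were 21.2%, 10.9% and, for the retinoid genes below, 11.5%, beside 7.9% of all tested genes. The conjugation and retinoid shares were near that of all genes. Papss2, which makes the sulfate donor PAPS, was at 121, 133 and 116 CPM untreated and 261, 300 and 290 CPM with butyrate with no overlap (log2 fold change 1.20 ± 0.13, edgeR adjusted p = 1.71e-05). Cyp3a13 rose from 226 ± 24.3 to 367 ± 26.3 CPM, while Cyp2u1 fell from 22.5 ± 1.80 to 13.4 ± 0.45 CPM. Gstm1, a glutathione transferase, fell from 123 ± 11.8 to 77.1 ± 17.7 CPM. Without butyrate replicate 3 the conjugation counts were 5 and 4, and they were 1 and 1 without butyrate replicate 1, untreated replicate 2 or untreated replicate 3. Among 26 retinoid genes, Rdh7, a retinol dehydrogenase, rose from 36.4 ± 1.90 to 67.3 ± 3.14 CPM, while Lrat, which stores retinol as ester, fell from 15.9 ± 2.75 to 7.11 ± 1.01 CPM and Rbp4 from 4.21 ± 1.07 to 1.46 ± 0.09 CPM. Without butyrate replicate 2 a second retinoid gene was called higher. The bile acid exporter genes Slc51a (19.0 ± 0.66 to 28.0 ± 3.12 CPM), Slc51b (6.89 ± 0.17 to 10.8 ± 1.18 CPM) and Abcc2 (157 ± 7.71 to 227 ± 9.55 CPM) rose. They were the 3 called higher in a bile acid list of 13 tested genes, and 2 were called lower, Slco2b1 and Vdr. The number lower was 0 without butyrate replicate 1 or untreated replicate 2. Sterol synthesis had 1 of 25 called, lower, and none called lower without any 1 of the 6 libraries except butyrate replicate 3.

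**Figure D3:**
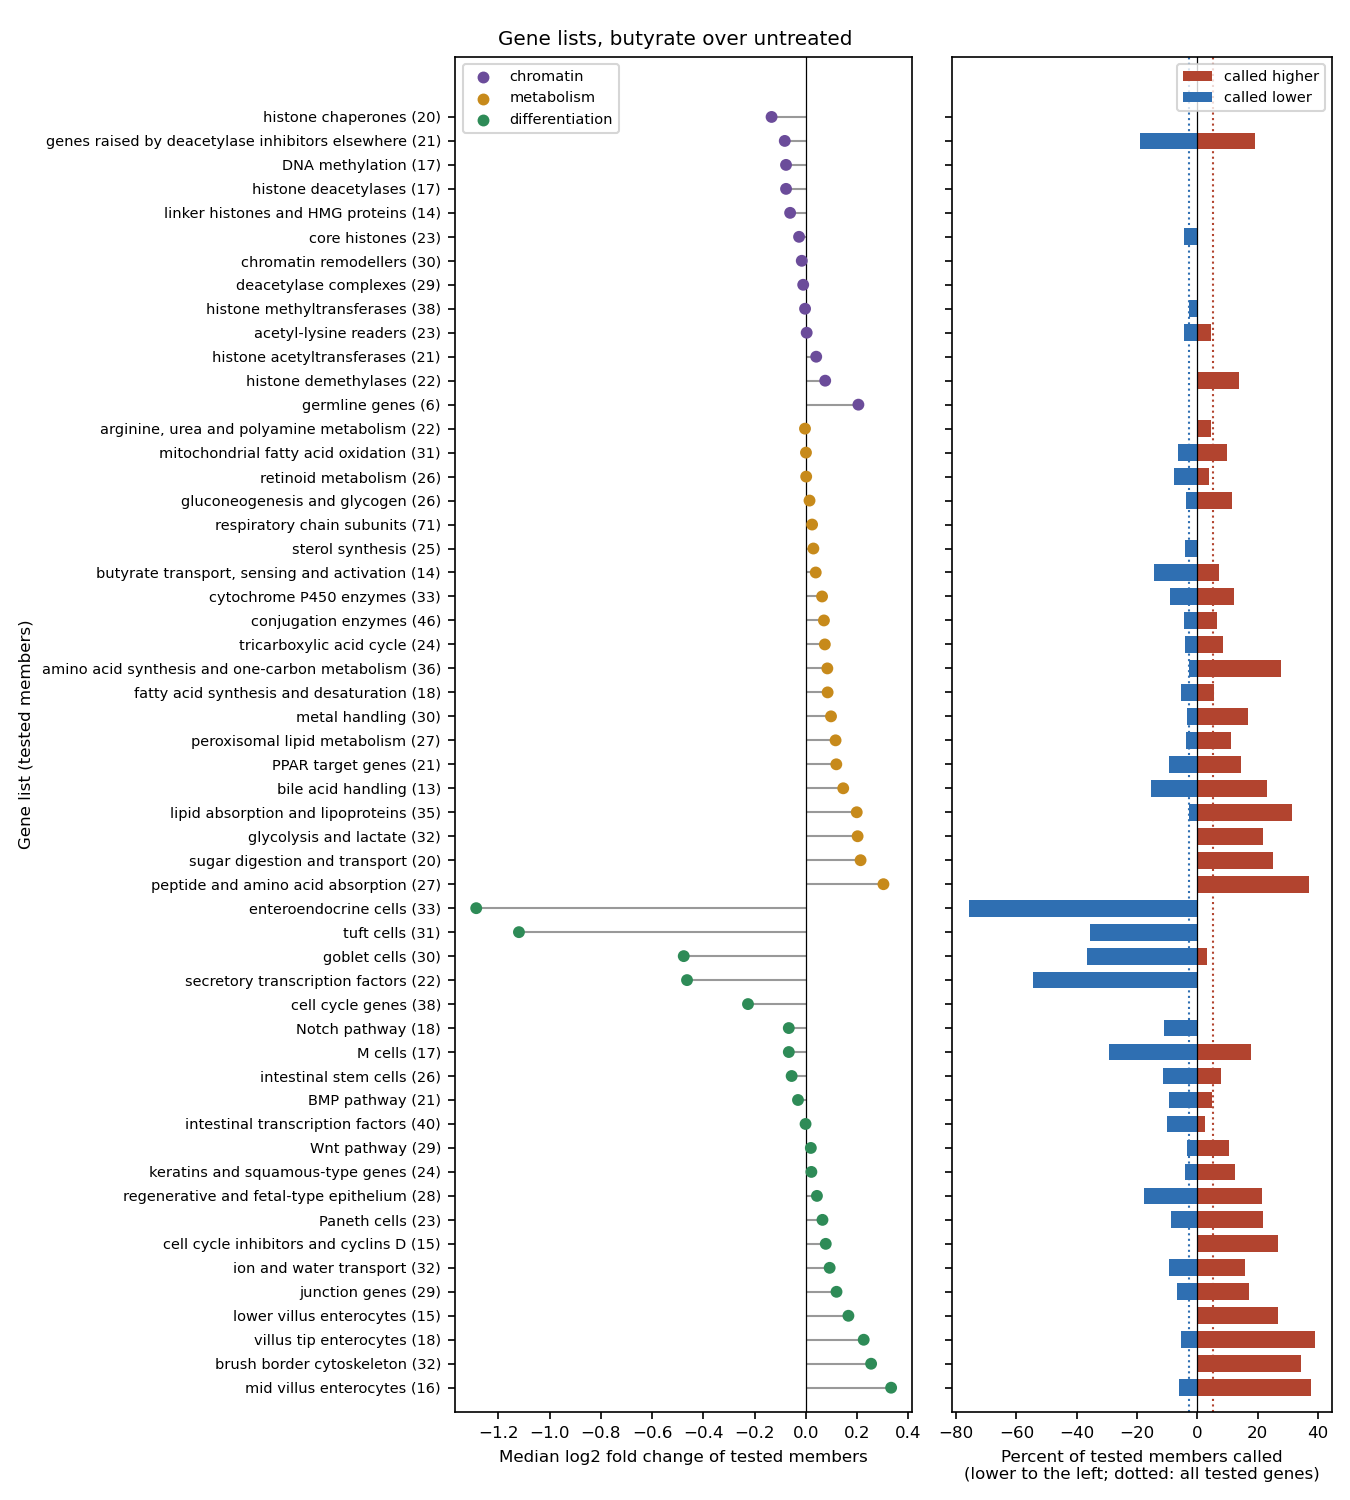
On the left, the median log2 fold change of the tested members of each chromatin, metabolism and differentiation list; on the right, the percent of those members called higher (red, to the right) or lower (blue, to the left), with dotted lines at the 5.14% and 2.76% of all tested genes. Medians of the nutrient absorption and brush border lists lie to the right of 0 and those of the enteroendocrine, tuft and goblet lists to the left, while most chromatin lists lie near 0; among these the list of genes raised by deacetylase inhibitors elsewhere had 8 of 21 called.

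Markers of stem cells moved in opposite directions. Olfm4 (chr14:80000302-80021930), a secreted protein that marks crypt base columnar cells and their first progeny, was at 24.7, 26.4 and 30.2 CPM untreated and 6.18, 9.62 and 4.87 CPM with butyrate, with no overlap (log2 fold change -1.97 ± 0.18, edgeR adjusted p = 2.82e-06). Lgr5, a receptor that marks the same crypt base cells, was at 11.5, 7.94 and 8.09 CPM untreated and 29.7, 30.1 and 19.3 CPM with butyrate. Its groups were apart in the other direction (1.52 ± 0.27, adjusted p = 0.00153). Of 26 tested stem cell genes 2 rose, Lgr5 and the RNA-binding protein gene Msi1 (2.96 ± 0.41 to 8.15 ± 1.41 CPM), and 3 fell, Olfm4, Axin2 and Aqp4, and no single library moved these counts by more than 1.5-fold. In bulk libraries fewer cells of a type and less RNA per cell cannot be told apart.

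Wnt genes were called in both directions, and the Notch genes called were lower. Wnt4 and Notum, a secreted Wnt inactivator (3.37 ± 0.64 to 8.08 ± 0.51 CPM), rose along with Lgr5, while Axin2, a feedback target of Wnt signalling, was at 57.6, 54.5 and 54.6 CPM untreated and 36.7, 40.8 and 39.2 CPM with butyrate (log2 fold change -0.51 ± 0.11, edgeR adjusted p = 0.00532). The other 25 of 29 tested Wnt genes were not called, and 5 Wnt genes were called higher without butyrate replicate 3. In the Notch list 2 of 18 were called (11.1%, beside 7.9% of all tested genes), and both were lower. Hes1, the pathway's main target in the crypt, was at 91.4 ± 0.81 and 74.6 ± 5.73 CPM, and Dtx4 at 76.2 ± 0.96 and 57.1 ± 0.26 CPM. Hes1 lost its call without any 1 of butyrate replicates 1 and 2 and the 3 untreated libraries (adjusted p up to 0.128) and Dtx4 without butyrate replicate 1 or untreated replicate 2 or 3 (up to 0.0608), whereas 5 Notch genes were called lower without butyrate replicate 3. Of 21 BMP genes, Bmp8b rose (88.5 ± 0.71 to 120 ± 7.36 CPM), and the inhibitor Bambi and the target Id1 were called lower. Neither Bambi nor Id1 was called without butyrate replicate 1 or untreated replicate 2.

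Regulators of the secretory lineages fell. Of 22 tested secretory transcription factors 12 were called lower and none higher (median log2 fold change -0.46), 7 without butyrate replicate 1 and 6 without untreated replicate 2. Atoh1, which commits progenitors to the secretory fate, was at 48.8, 62.7 and 62.3 CPM untreated and 40.6, 34.8 and 34.9 CPM with butyrate. Untreated replicate 1 was the lowest of its group and the groups stayed apart (-0.65 ± 0.12, edgeR adjusted p = 0.00195). Spdef, a factor of goblet and Paneth maturation, was at 43.1 ± 11.2 and 27.5 ± 1.85 CPM, and its call was lost without butyrate replicate 1 or untreated replicate 2 or 3 (up to 0.118). Others that fell were Sox4, Gfi1, Foxa3, Pou2f3 of tuft cells and the enteroendocrine factors Neurog3, Insm1, Rfx6, Neurod1 and Nkx2-2.

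Goblet genes fell in part, and their count depended on untreated replicate 1. Of 30 tested, 11 were called lower and 1 higher. The number called lower was 17 without untreated replicate 1 and 3 without untreated replicate 2 or 3, and 7 without any single butyrate library or without the 2 libraries highest in Lars2. Clca1, a secreted mucus protein, was at 379, 499 and 508 CPM untreated and 339, 279 and 259 CPM with butyrate (log2 fold change -0.66 ± 0.12, edgeR adjusted p = 0.00121). The mucin gene Muc2 was at 24.0, 52.0 and 49.5 CPM against 40.1, 31.6 and 33.1 CPM; untreated replicate 1 was the lowest of all 6 libraries, and the gene was not called (-0.26, 95% interval -0.68 to 0.17). Fcgbp and Tff3 were called lower, and not without butyrate replicate 2 or 3 or untreated replicate 2 or 3 (up to 0.158 and 0.126). Scin (chr12:40059769-40134228), an actin-severing protein listed as a goblet gene, went against its list. It was at 25.1, 28.7 and 22.1 CPM untreated and 80.3, 80.8 and 79.4 CPM with butyrate (1.66 ± 0.13, adjusted p = 2.30e-07).

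Paneth genes were called in both directions and tuft genes were called lower. Lyz1 (chr10:117287796-117292868), the lysozyme of Paneth cells, was at 750, 854 and 924 CPM untreated and 2343, 2084 and 1875 CPM with butyrate (log2 fold change 1.32 ± 0.16, edgeR adjusted p = 3.96e-05), and no untreated library came near a butyrate one. Of 23 tested Paneth genes 5 rose and 2 fell, and the number that rose was 2 without butyrate replicate 1. The defensin genes among them, AY761184 and Defa30, have close copies and are uncertain. Tuft genes had 11 of 31 called lower and none higher (median -1.12), and the count was 6 without untreated replicate 2 or 3. Spib, an Ets factor of tuft and M cells, was at 3.99, 5.35 and 4.71 CPM untreated and 1.68, 0.780 and 0.793 CPM with butyrate, with no overlap (-2.04 ± 0.28, adjusted p = 0.000130). Trpm5, the tuft cell ion channel, fell from 5.08 ± 1.80 to 1.94 ± 0.24 CPM.

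Genes of injury and fetal-type epithelium divided by role. The growth factor genes Ereg and Areg, ligands of the EGF receptor, rose, while Clu and Anxa8 fell. Ereg was at 34.5, 23.3 and 26.8 CPM untreated and 81.2, 90.6 and 56.6 CPM with butyrate (log2 fold change 1.43 ± 0.16, edgeR adjusted p = 2.10e-05). Areg was at 273, 276 and 270 CPM against 418, 389 and 405 CPM (0.57 ± 0.07, adjusted p = 6.56e-05). For both genes all 3 butyrate libraries were above every untreated one. Anxa8 was at 14.3 ± 2.29 and 4.99 ± 0.18 CPM. Of 28 tested, 6 rose and 5 fell; the number that rose was 2 without butyrate replicate 1 or untreated replicate 2 or 3, and the number that fell was 3 without butyrate replicate 1 or untreated replicate 3. A list of M cell genes was called in both directions, with 3 of 17 tested members higher and 5 lower. Those higher included the chemokine gene Ccl20, known from the epithelium over lymphoid follicles (6.44 ± 0.94 to 13.1 ± 1.65 CPM). Tnfaip2 was another (33.5 ± 2.03 to 62.2 ± 9.38 CPM). Clu and Spib were among those lower. The number of M cell genes that fell was 2 without butyrate replicate 1 or untreated replicate 2 or 3.

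The GC box GGGCGG, the letters bound by Sp1 and Sp3, was no more frequent in the promoters of the genes that rose. On either strand of the 300-base windows it was present in 57.6% of those called higher, 53.3% of those called lower and 63.4% of all tested genes with a window. TATAAA was present in 12.1%, 12.5% and 7.16%. The median number of CG dinucleotides was 16 in the windows of genes called higher, 14 in those called lower and 20 in all.

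Most of the changes recurred when butyrate was added to enteroids given IL-13, in 6 other libraries that share no sample with the comparison above. There butyrate with IL-13 over IL-13 alone changed 2912 genes (21.2%), and 773 of them were called in the same direction as with butyrate alone, 500 higher and 273 lower. That is 71.2% of the 1086 and 26.5% of the 2912. The number was 481 without butyrate replicate 1, 462 without untreated replicate 2 and 435 without untreated replicate 3. Both comparisons share the fit's estimate of spread although they share no library, so their calls are not fully independent. Stbd1 was at 34.4 ± 3.57 CPM with IL-13 and 95.8 ± 16.8 with both agents (log2 fold change 1.48), so its level before butyrate was higher there. Trib3 rose by 0.88, Cyp2d22 by 1.98 and Ggt1 by 1.52 on the log2 scale, and Krt4 changed by -2.81. H1f0 was not called there either (0.02, edgeR adjusted p = 0.928).

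The response itself differed between the backgrounds for 119 of all tested genes by the interaction test (0.865%), of which 50 were among the 1086. Among the 1086 it was 79 when butyrate replicate 3 was left out, 18 without butyrate replicate 1 and 19 without untreated replicate 2, and other single libraries left it between 21 and 69. Scin, Papss2 and Extl1 rose less on IL-13 than alone, by 1.29, 0.96 and 1.07 on the log2 scale (edgeR adjusted p = 0.00154, 0.0173 and 0.00427), and Atoh1 fell more, by 1.15 (0.00523). Of the 6 genes called in opposite directions, Tspan1, Muc3a, Fgfbp1 and Acss1 were lower with butyrate alone and higher with butyrate on IL-13, and 2210407C18Rik the other way round; they were picked out after their values were seen.

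**Figure D4:**
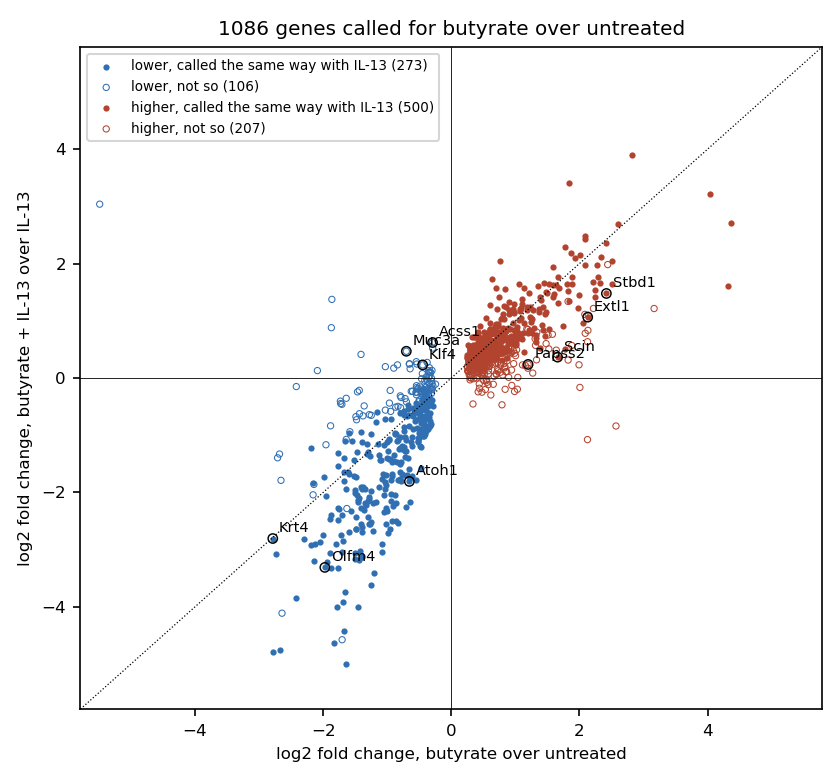
Log2 fold change of the 1086 called genes with butyrate alone over untreated (horizontal) and with butyrate and IL-13 over IL-13 (vertical); filled points are the 773 called in the same direction in both, open points the rest, and the dotted line marks equal change. Most points lie at the lower left and the upper right, and many genes that fell alone lie below the line.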

How the data were processed

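The deposited table gave the whole-number count of reads per gene in each of the 12 libraries, and by the file headers the authors had limited its rows to genes whose corrected p was under 1 when they compared untreated and IL-13 libraries by DESeq. Genes seen only with butyrate may therefore not be covered. The authors' p-value and log2 fold change columns of that comparison, as deposited, were not used. Per the submitters' processing notes reads were placed on mm10. The aligner, the counter and any use of strand: not given in the sources used here. Columns headed US were read as untreated.

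The 18092 rows became 18068 genes after several rows of 23 genes were summed; 98.4% had an identifier in GENCODE M21, which gave current symbols and coordinates, and 0 were mitochondrial. The test was that of edgeR 4.0.16 in R 4.3.3 (quasi-likelihood, robust, TMM, filterByExpr, 13750 genes kept and 4318 removed). The fit held all 12 libraries with group as the only term, a biological coefficient of variation of 10.2% and 8 residual degrees of freedom. Contrasts read from it were butyrate over untreated, IL-13 with butyrate over IL-13, and the interaction, which is the difference of the other contrasts. CPM are counts over TMM library sizes. No pair of replicates was close to sampling noise, with a chi-square of 3.90 to 37.7 per degree of freedom.

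Members and gene lists were chosen with earlier results of these data known, so no list was tested. Named genes were up to 12 called genes per direction with the largest change, a mean of at least 50 counts and groups that did not overlap, outside the interferon and enteroendocrine lists and without clone symbols; up to 4 called members of each list with a mean of at least 20 counts; and a fixed set including all deacetylases. Others printed with a value were chosen after their values were seen, among them Fam129a, Atf3, Ppp1r15a, Slc7a11, Got1, Chac1, Mthfd2, Gpt2, Asns, Atf4, Nars, Rars, Ldha, Pfkp, Fabp2, Epcam, Spdef, Tff3, Fcgbp and Slc25a45. Promoters were RefSeq windows on GRCm38.p6, matched by symbol for 75.3% of tested genes. On counts simulated for butyrate over untreated (13546 genes) the test found 71.4% of the 1.5-fold, 96.9% of the 2-fold and 100% of the 4-fold changes made, with 12 unchanged genes called. The simulation gave every gene and library the same coefficient of variation, while the real replicate pairs differed in spread. These shares therefore need not hold for the real counts. Results for some genes are not reported here. Alternatives were RLE scaling, DESeq2 1.42.0, other filters, a replicate block, a fit of 2 groups, and each library left out. Tables and plots used Python 3.11.15, pandas 2.3.3 and matplotlib 3.10.9.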

Additional observations from a re-analysis of the deposited data

Results flagged for a closer look

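For 20 of the named genes the change with butyrate differed between enteroids without and with IL-13, by edgeR's interaction test with adjusted p from 0.000505 (Nat8f5) to 0.0471 (Me1). The values are log2 differences, the change on IL-13 minus the change alone. Genes called higher with butyrate alone and raised less, or not called higher, on IL-13 gave -1.067 for Extl1, -1.268 for Wnt4, -0.962 for Papss2, -1.295 for Scin, -0.733 for Pdzk1, -0.633 for Atp2b1, -0.883 for Nat8, -1.185 for Nat8f5, -0.572 for Fam129a and -0.864 for Slc25a45, a mitochondrial carrier. Nat8 and Nat8f5 are close copies and share reads in a way that is uncertain. Genes that fell by more on IL-13 gave -1.337 for Olfm4, -1.153 for Atoh1, -1.514 for Spdef, -1.105 for Chga, -1.132 for Chgb, -0.676 for S100g and -1.013 for Aqp1. Acss1 (0.912), Me1 (0.904) and Klf4 (0.676) were called lower with butyrate alone and had changes of 0.62, 0.25 and 0.23 on IL-13, where only that of Acss1 was called. The number of such genes among the 1086 depended on single libraries, from 18 without butyrate replicate 1 to 79 without butyrate replicate 3.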

How the results depend on the processing

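No named gene's call turned its direction under an alternative. Of 65 gene lists, 5 changed which direction held more calls in at least 1 alternative (the BMP, butyrate transport, conjugation, regenerative and tricarboxylic acid cycle lists), and the median of 22 changed sign. Leaving out each of the 12 libraries in turn, the genes called numbered 559 to 1395, those called higher 370 to 851, those called lower 172 to 544, those at 2-fold or more 212 to 303, those called the same way on IL-13 435 to 895, and those with an interaction call 18 to 79. A filter at a mean of 50 counts left 161 genes at 2-fold or more, with fewer genes tested, and DESeq2 gave 106 genes with an interaction call; the cause was not tested. RLE scaling (1101), DESeq2 (1386), no filter (1047), the stricter filter (936), a fit of the 2 groups alone (996) and omission of the 2 libraries highest in Lars2 (1183) kept the number of calls within 1.5 times the 1086. A replicate block gave 978 calls and 48 with an interaction call. The labels do not say that a number pairs libraries. Deviations from the group mean of same-numbered untreated and butyrate libraries correlated at -0.06, -0.02 and 0.10. Untreated replicate 1 correlated best with butyrate replicate 2 (0.13). With 3 libraries per group these values cannot show whether same-numbered libraries were paired. In the 100 bases before the start, GC boxes were present in 46.6%, 39.8% and 46.6% of the windows of genes called higher, called lower and tested. Changes in genes of few counts, such as Slc5a8 and Sp100, are limited by depth.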
